A study of Mus musculus with 6 samples.

Results

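The axon guidance families of semaphorins, ephrins, netrins and slits, with their receptors, were followed in the fat cells of newborn mice that lacked Lats1 and Lats2 in adipocytes. Members were all genes whose symbols belong to the Sema3 to Sema7, plexin, neuropilin, Eph, ephrin, netrin, Unc5, Slit and Robo series and that had a count of at least 10 in at least 3 of the 6 libraries. Of 67 symbols that matched by name among the 37384 in the table, 61 met this rule, and no expression difference between genotypes entered it. The 6 others were Efna3, Epha6, Epha8, Epha10, Unc5d and Ntn5, none of which exceeded 7 counts in a library. Sema4f lay just inside the rule, with counts of 2, 10 and 2 in L1L2-FF and 8, 10 and 14 in L1L2-AKO, and Efna3 lay just outside it, with counts of 5, 0 and 2 and of 7, 4 and 5.

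Guidance molecules are ligands and receptors that steer growing axons and migrating cells by attraction or repulsion. Class 3 semaphorins, netrins and slits are secreted and act at a distance through plexins with neuropilins, through Dcc and Unc5 receptors, and through Robo receptors, whereas class 4 to 7 semaphorins and ephrins are mostly held at the membrane and act on touching cells through plexins and Eph receptor tyrosine kinases. Outside the nervous system the same families shape blood vessels and the nerve supply of tissues, adipose tissue included.

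RNA was sequenced from adipocytes floated out of digested inguinal subcutaneous white fat of male mice at postnatal day 7. L1L2-AKO mice were Lats1f/fLats2f/f animals that carried Adipoq-Cre, which is driven by the adiponectin promoter of adipocytes, and their L1L2-FF littermates carried the floxed alleles of both kinases without Cre. Each genotype had 3 libraries, and each library pooled 4 mice, so that p-values measure the spread between pools. A floated fraction can still hold vessel fragments, nerve fibres and immune cells.

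Library totals ranged from 30548473 to 32107917 counts. Lats1 fell from 76.0, 94.2 and 78.4 CPM (counts scaled to the library size, with TMM normalisation factors) in L1L2-FF to 38.9, 41.2 and 40.5 in L1L2-AKO (adjusted p = 0.00131, edgeR), whereas Lats2 rose from 74.9, 85.7 and 68.5 to 96.1, 126 and 135 (adjusted p = 0.0278), against its label. Lats2 missed the threshold when L1L2-FF replicate 1 or 3 or L1L2-AKO replicate 2 or 3 was left out (adjusted p up to 0.104). The count of a gene covers all its exons, and the deleted exons were not measured apart, so L1L2-AKO below stands for the libraries labelled with that genotype. The 14 markers of mature adipocytes were all detected, and 6 fell and 0 rose at an adjusted p under 0.05 in edgeR. Their summed CPM, led by Lpl, Car3 and Fabp4, overlapped, at 39671 to 57756 in L1L2-FF and 34367 to 45343 in L1L2-AKO. Lpl went the other way from most of the list, at 12873, 8395 and 13948 CPM in L1L2-FF and 16177, 14171 and 20176 CPM in L1L2-AKO (adjusted p = 0.272, edgeR). The sum without Lpl was not taken. Of the 14 markers 78.6% did not overlap between genotypes, 10 lower and 1 higher, against 36.4% of all genes tested. Adipoq itself was lower in L1L2-AKO (log2 fold change -1.26, adjusted p = 0.00640, edgeR). In bulk libraries, fewer cells of a type and less RNA per cell cannot be told apart.

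Of the 61 guidance genes, 12 passed an adjusted p of 0.05 (edgeR quasi-likelihood test, Benjamini-Hochberg adjustment over the 15674 genes tested), which was 19.7% of members against 16.5% of all genes. In L1L2-AKO 9 members rose, or 14.8% against 9.28% of all genes, and 3 fell, or 4.92% against 7.18%. The member share was thus close to that of the whole table, and the median log2 fold change was 0.01 over the members and -0.02 over all genes tested. Without L1L2-AKO replicate 2, and likewise without replicate 3, 8 members passed, of which 1 was lower. The calls were unevenly spread over the roles of the members. Of the 12 secreted ligands, 6 rose and 0 fell, with a median log2 fold change of 0.91. Of the 20 membrane-bound ligands none passed, and of the 29 receptors 3 rose and 3 fell.

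**Figure D1:**
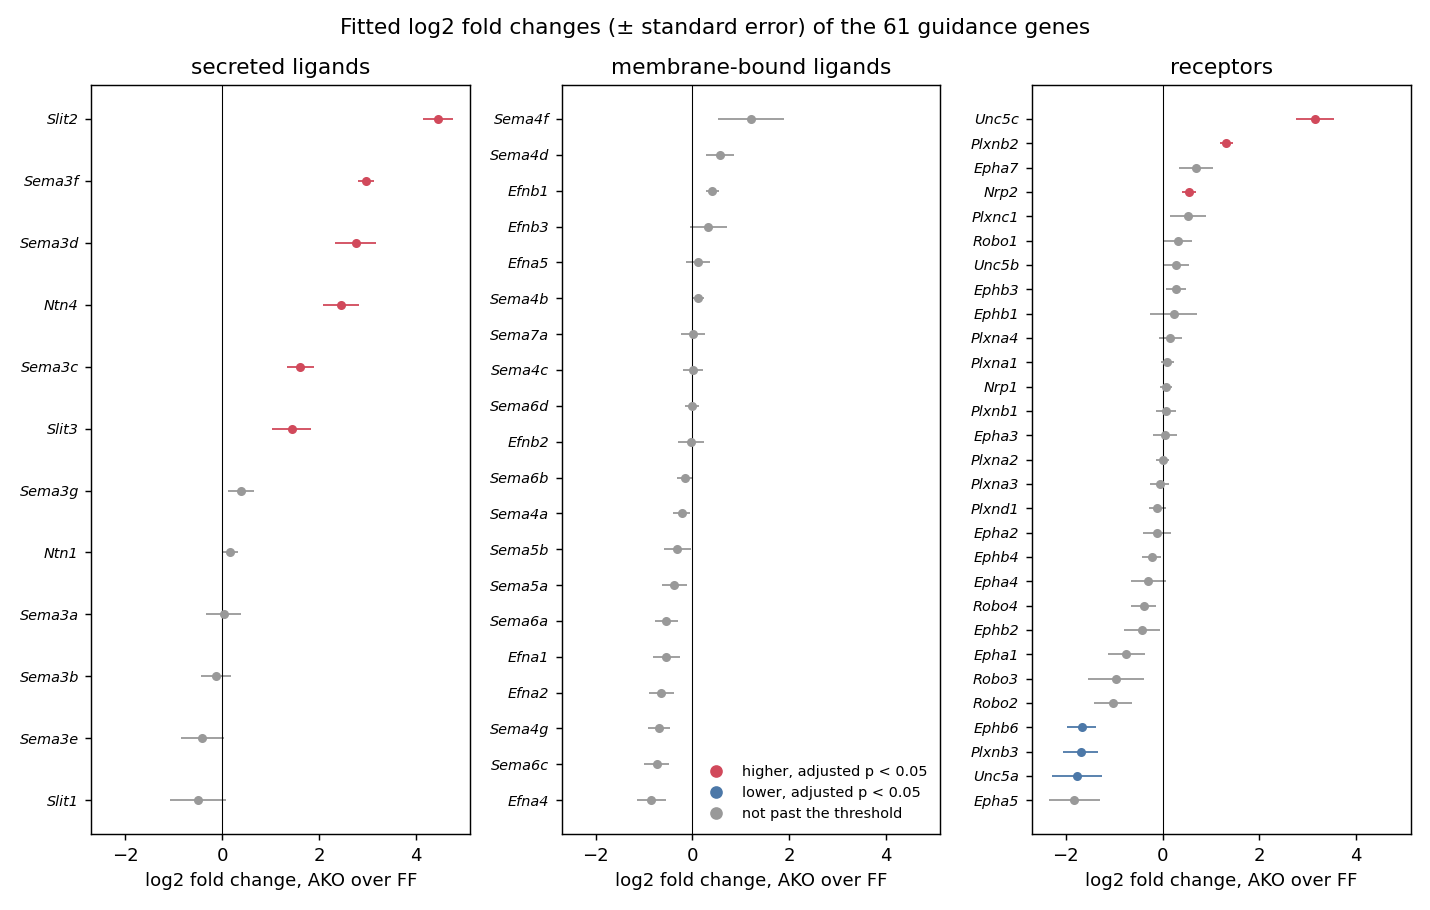
Each point is the fitted log2 fold change of a guidance gene (L1L2-AKO over L1L2-FF, x axis) with its standard error as the bar, in panels for secreted ligands, membrane-bound ligands and receptors, and colour marks an adjusted p under 0.05. The 6 called secreted ligands lie from 1.43 to 4.45, all membrane-bound ligands are grey, and the called receptors lie on both sides of 0.

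The promoters of 5 of the 6 secreted ligands that rose, Sema3f not among them, are shown first, because these genes moved in the same direction in L1L2-AKO. Each line gives the 250 bases before the annotated start from RefSeq (GRCm38.p6), written 5′ to 3′ on the strand of the gene. The gene spans given below, from GENCODE, begin upstream of the Sema3c and Ntn4 windows and inside the Slit2 and Slit3 windows. RefSeq and GENCODE thus place the starts of these genes differently. Capitals mark the motifs found among GGAATG (TEAD), TGANTCA (AP-1), CAGACA (SMAD), CCAAT and TATAAA, searched on both strands.

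Slit2 (chr5:47982905-47983154, + strand): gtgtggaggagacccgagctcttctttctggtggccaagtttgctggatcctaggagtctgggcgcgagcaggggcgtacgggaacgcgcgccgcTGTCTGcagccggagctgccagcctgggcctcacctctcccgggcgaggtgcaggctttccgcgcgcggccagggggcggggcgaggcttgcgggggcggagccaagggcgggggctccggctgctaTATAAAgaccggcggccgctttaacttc
Slit3 (chr11:35121206-35121455, + strand): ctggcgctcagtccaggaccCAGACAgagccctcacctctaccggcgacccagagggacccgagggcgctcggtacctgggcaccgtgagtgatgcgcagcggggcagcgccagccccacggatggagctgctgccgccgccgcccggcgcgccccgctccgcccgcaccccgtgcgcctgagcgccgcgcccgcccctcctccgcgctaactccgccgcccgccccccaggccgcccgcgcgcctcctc
Sema3d (chr5:12382916-12383165, + strand): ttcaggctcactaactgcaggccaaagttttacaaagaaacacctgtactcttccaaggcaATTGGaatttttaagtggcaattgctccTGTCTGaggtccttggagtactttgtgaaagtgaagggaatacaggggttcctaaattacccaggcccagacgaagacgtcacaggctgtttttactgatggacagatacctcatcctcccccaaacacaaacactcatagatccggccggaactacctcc
Ntn4 (chr10:93640799-93641048, + strand): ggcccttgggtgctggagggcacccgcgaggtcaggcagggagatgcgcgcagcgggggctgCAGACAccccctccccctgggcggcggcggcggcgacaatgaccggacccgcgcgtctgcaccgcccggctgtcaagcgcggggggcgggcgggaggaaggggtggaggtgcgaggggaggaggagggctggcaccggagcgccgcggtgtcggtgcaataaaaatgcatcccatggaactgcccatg
Sema3c (chr5:17574566-17574815, + strand): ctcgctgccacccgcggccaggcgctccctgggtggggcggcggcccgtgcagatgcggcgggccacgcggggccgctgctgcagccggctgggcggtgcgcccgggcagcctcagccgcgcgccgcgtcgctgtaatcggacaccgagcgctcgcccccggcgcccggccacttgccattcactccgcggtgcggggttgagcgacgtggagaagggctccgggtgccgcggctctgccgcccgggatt

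The capitals in Slit2, Slit3, Sema3d and Ntn4 include the SMAD letters, as TGTCTG where they lie on the other strand. In Sema3d the run ATTGG is the CCAAT letters of the other strand, and the capital run TATAAA near the start of Slit2 is the TATA letters. The Sema3c window held none of the 5 motifs. Over windows of 300 bases that also took in 50 bases after the start, the SMAD letters occurred in 21.0% of 32851 promoters and in 25.0% of the 68 promoters of the 53 members that were matched, and the TEAD letters in 14.7% and 11.8%. The remaining shares were 7.81% and 4.41% for AP-1, 37.4% and 25.0% for CCAAT and 13.6% and 2.94% for TATAAA. No promoter of the 5 printed held the TEAD letters. These matches describe letters and are not binding sites.

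Slit2 and Slit3 rose, and Slit1 did not pass. Slits are large secreted proteins that repel axons through Robo receptors. Slit2 (chr5:47983138-48307733, plus strand) stood at 8.45, 4.48 and 5.54 CPM in L1L2-FF and at 93.1, 144 and 168 CPM in L1L2-AKO, and it was 21.9-fold higher (log2 fold change 4.45, standard error 0.311, adjusted p = 3.03e-04). The lowest L1L2-AKO library was about an order of magnitude above the highest control. Slit3 (chr11:35121224-35708507, plus strand) gave 53.4, 116 and 37.7 CPM in L1L2-FF and 139, 179.8 and 242 CPM in L1L2-AKO (log2 fold change 1.43, standard error 0.400, adjusted p = 0.0458). The genotypes did not overlap, but L1L2-FF replicate 2 came close to the lowest L1L2-AKO library. Slit3 missed the threshold when L1L2-FF replicate 1 or 3 or L1L2-AKO replicate 2 or 3 was left out (adjusted p from 0.0830 to 0.155), and leaving out L1L2-FF replicate 2 moved its log2 fold change to 2.04. Slit1 stayed under 1 CPM in every library (0.193 to 0.734 CPM), with a log2 fold change of -0.50 and an adjusted p of 0.621.

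Corrected for exon length, Slit3 made up nearly all slit RNA in L1L2-FF. The 3 slits together reached 11.7 ± 6.85 CPM per kb of exon (SD, n = 3) in L1L2-FF and 36.2 ± 9.96 in L1L2-AKO. Slit2 was 2.62% ± 1.49 of this sum in L1L2-FF and 14.7% ± 1.22 in L1L2-AKO, and Slit3 was 96.6% ± 1.77 and 85.1% ± 1.18. The share of Slit2 depends on the length taken, since its annotated exons add up to 25433 bases while its longest transcript has 9960. By the longest transcript, Slit2 averaged 0.618 CPM per kb in L1L2-FF and 13.6 in L1L2-AKO.

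Of the 7 class 3 semaphorins, Sema3f, Sema3d and Sema3c rose and Sema3a, Sema3b, Sema3e and Sema3g did not pass. Sema3f, a repellent that binds neuropilin 2 (chr9:107681500-107710475, minus strand), stood at 14.1, 13.8 and 19.2 CPM in L1L2-FF and at 139, 107 and 123 CPM in L1L2-AKO, a 7.82-fold difference (log2 fold change 2.97, standard error 0.174, adjusted p = 1.65e-04). All 3 L1L2-AKO libraries lay far above all 3 controls, and replicates of a genotype were close together. Sema3d (chr5:12383385-12588948, plus strand) gave 3.57, 3.37 and 3.19 CPM in L1L2-FF and 9.65, 23.0 and 35.8 CPM in L1L2-AKO (log2 fold change 2.75, standard error 0.429, adjusted p = 0.00474). The controls were tight, and the L1L2-AKO libraries were spread, with replicate 1 lowest. Sema3c (chr5:17574281-17730268, plus strand), which signals through both neuropilins, gave 78.9, 47.4 and 97.8 CPM in L1L2-FF and 233, 177 and 274 CPM in L1L2-AKO (log2 fold change 1.61, standard error 0.273, adjusted p = 0.00659). Its groups did not overlap either.

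Sema3b lies 72.27 kb from Sema3f on the same strand of chromosome 9. It stood at 10.8 to 23.1 CPM in L1L2-FF and 10.04 to 17.1 CPM in L1L2-AKO, with a log2 fold change of -0.12 and an adjusted p of 0.834, so the neighbour of the risen Sema3f gave overlapping values in both genotypes. Sema3g, a semaphorin of endothelial cells, had a log2 fold change of 0.39 (adjusted p = 0.390), Sema3a of 0.03 (adjusted p = 0.974) and Sema3e of -0.42 (adjusted p = 0.585). Summed per kb of exon, the class 3 semaphorins reached 23.0 ± 1.59 CPM per kb (SD, n = 3) in L1L2-FF and 68.9 ± 7.85 in L1L2-AKO. Sema3c was the most abundant of them on average in both genotypes, at 45.0% ± 13.4 and 46.1% ± 4.98 of the sum, although in L1L2-FF replicate 2 Sema3g, at 33.7%, exceeded the 29.8% of Sema3c. The share of Sema3f was 13.04% ± 1.56 in L1L2-FF and 34.3% ± 2.84 in L1L2-AKO, without overlap.

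Of the netrins, Ntn4 rose and Ntn1 did not pass. Ntn4, a netrin that binds laminin in basement membranes (chr10:93640681-93747207, plus strand), stood at 2.30, 2.503 and 1.84 CPM in L1L2-FF and at 5.85, 15.9 and 14.6 CPM in L1L2-AKO (log2 fold change 2.45, standard error 0.378, adjusted p = 0.00452). Replicate 1 was again the lowest of the L1L2-AKO libraries. Ntn1, the classical attractant, gave 9.82 to 13.1 CPM in L1L2-FF and 12.5 to 13.2 CPM in L1L2-AKO (log2 fold change 0.17, standard error 0.153). Among the 9 members that rose, L1L2-AKO replicate 1 was the lowest L1L2-AKO library in 6, a count not made over all genes.

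**Figure D2:**
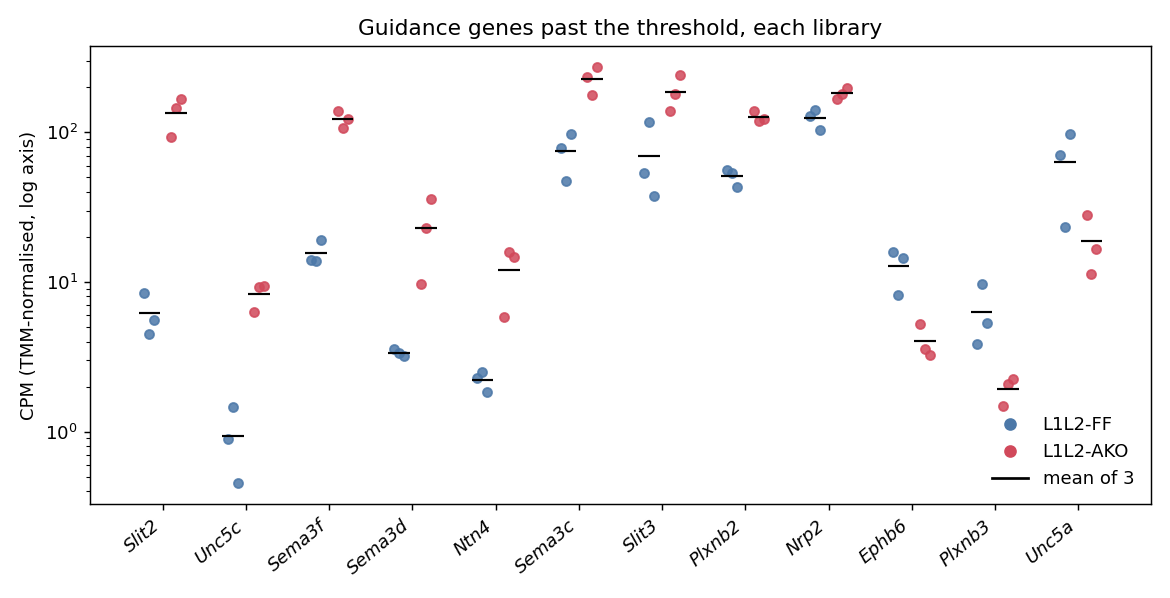
Points are TMM-normalised CPM (y axis, log scale) of each library for the 12 guidance genes past the threshold (x axis, ordered by fold change), with replicates 1 to 3 from left to right within a genotype and a line at the mean. L1L2-AKO points lie above all L1L2-FF points for the 9 genes that rose, and Unc5a is the only gene of the 12 in which the genotypes overlap.

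Other cell types of the fraction moved as well, and their part in the rise of the secreted ligands was not tested. Of 17 markers of adipose progenitors and fibroblasts, cells that also make matrix and secreted cues, 1 rose and 3 fell. Their summed CPM was 2419 to 3094 in L1L2-FF and 1708 to 2311 in L1L2-AKO, lower in every L1L2-AKO library. Col15a1 led this sum, at 1813, 1036 and 1944 CPM in L1L2-FF and 1312, 683 and 929 CPM in L1L2-AKO. Its values overlapped between genotypes (adjusted p = 0.160, edgeR), and the sum without it was not taken. Of 18 macrophage markers 13 rose, and their summed CPM was 315 to 592 in L1L2-FF and 1085 to 1209 in L1L2-AKO. Mural cell markers were split, with 3 of 14 higher and 3 lower, and their summed CPM overlapped (1691 to 2115 and 1926 to 2118). None of these 3 lists had a member at 0.

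Among the receptors of the guidance families, Plxnb2, Nrp2 and Unc5c rose. Plxnb2, a plexin for class 4 semaphorins (chr15:89155549-89180788, minus strand), stood at 55.9, 53.4 and 43.2 CPM in L1L2-FF and at 139, 119 and 123 CPM in L1L2-AKO (log2 fold change 1.32, standard error 0.134, adjusted p = 8.82e-04). Every L1L2-AKO library was more than double every control. Macrophage markers, given above, moved in the same direction, and their part in the Plxnb2 rise was not tested. Nrp2, a coreceptor of class 3 semaphorins (chr1:62703285-62818695, plus strand), gave 129, 141 and 104 CPM in L1L2-FF and 166, 182 and 199 CPM in L1L2-AKO (log2 fold change 0.55, standard error 0.145, adjusted p = 0.0364). The groups did not overlap, and the change was the smallest of the 12. It missed the threshold when L1L2-FF replicate 1 or 3 or L1L2-AKO replicate 2 or 3 was left out, with an adjusted p of up to 0.117.

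Unc5c and Unc5a, both netrin receptors of the Unc5 family that mediate repulsion, went in opposite directions. Unc5c (chr3:141465216-141834924, plus strand) stood at 0.893, 1.45 and 0.451 CPM in L1L2-FF and at 6.30, 9.26 and 9.42 CPM in L1L2-AKO (log2 fold change 3.15, standard error 0.394, adjusted p = 0.00194). Its L1L2-FF counts were 28, 47 and 14, against 209, 292 and 270 in L1L2-AKO. Unc5a (chr13:54949411-55006018, plus strand) gave 70.5, 23.3 and 97.5 CPM in L1L2-FF and 27.9, 11.4 and 16.7 CPM in L1L2-AKO (log2 fold change -1.77, standard error 0.509, adjusted p = 0.0499). L1L2-FF replicate 2 lay inside the L1L2-AKO range, and Unc5a missed the threshold when L1L2-FF replicate 1 or 3 or L1L2-AKO replicate 2 or 3 was left out (adjusted p up to 0.161). Per kb of exon, Unc5a was 69.1% ± 16.8 (SD, n = 3) of the Unc5 sum in L1L2-FF and 38.8% ± 8.63 in L1L2-AKO, while Unc5c stayed a small part of it, at 0.324% ± 0.317 and 4.28% ± 1.96.

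Ephb6 and Plxnb3 were the other receptors that fell. Ephb6, an Eph receptor without kinase activity (chr6:41605482-41620509, plus strand), stood at 15.9, 8.19 and 14.6 CPM in L1L2-FF and at 5.25, 3.58 and 3.24 CPM in L1L2-AKO (log2 fold change -1.67, standard error 0.298, adjusted p = 0.00819), with no overlap. Plxnb3, a plexin that binds Sema5a (chrX:73757090-73772514, plus strand), gave 3.83, 9.64 and 5.31 CPM in L1L2-FF and 1.48, 2.09 and 2.23 CPM in L1L2-AKO (log2 fold change -1.70, standard error 0.369, adjusted p = 0.0181). L1L2-FF replicate 2 was the highest, and all L1L2-AKO libraries were below all controls. Plxnb3 missed the threshold when any 1 of the L1L2-AKO libraries was left out, with an adjusted p of up to 0.0644.

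Schwann cell markers moved in the same direction as Plxnb3. Of 16 such markers 7 fell and 1 rose, with a median log2 fold change of -1.50, and none was at 0. Sox10, the transcription factor of the Schwann lineage, gave 5.07, 15.5 and 7.99 CPM in L1L2-FF and 1.54, 4.31 and 2.30 CPM in L1L2-AKO, and L1L2-FF replicate 2 was the highest for Sox10 as it was for Plxnb3. The summed CPM of the list, led by Pmp22, overlapped, at 988 to 1937 in L1L2-FF and 817 to 1475 in L1L2-AKO. Pmp22 was the 1 marker that rose, against the direction of the 7 that fell. It gave 351, 464 and 521 CPM in L1L2-FF and 602, 1004 and 1099 CPM in L1L2-AKO (adjusted p = 0.0304, edgeR). The sum without Pmp22 was not taken. The part of these cells in the lower Plxnb3 was not tested. Epha5, a neuronal Eph receptor, lay just outside the threshold (log2 fold change -1.82, adjusted p = 0.0508), with 0.606, 2.23 and 1.06 CPM in L1L2-FF and 0.362, 0.317 and 0.419 CPM in L1L2-AKO, where its counts were only 10 to 12.

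Of 11 Eph receptors, 1 fell and none rose, and of 7 ephrins none passed by edgeR, DESeq2 or limma-voom (1 higher and 2 lower at an unadjusted p under 0.05 in edgeR). Efnb1, a transmembrane ephrin, was the nearest, at 73.3, 68.9 and 53.1 CPM in L1L2-FF and 89.7, 88.5 and 82.0 CPM in L1L2-AKO (log2 fold change 0.41, standard error 0.139, adjusted p = 0.0795). Its genotypes did not overlap. Efna4 was lower in all L1L2-AKO libraries, at 0.602 to 0.844 CPM against 1.28 to 1.42 CPM, with a log2 fold change of -0.85 and an adjusted p of 0.0992, and 10.5% of its exon bases are shared with another gene. The glycolipid-anchored Efna1 and Efna2 had log2 fold changes of -0.54 and -0.64 (adjusted p = 0.231 and 0.141). Of the EphA receptors, Epha2 and Epha4 had the highest mean CPM per kb. Epha2 stood at 14.6 to 18.0 CPM in L1L2-FF and 9.39 to 22.4 CPM in L1L2-AKO, and Epha4 at 3.25 to 6.83 CPM and 2.34 to 4.88 CPM, both with overlap. The ephrins summed per kb of exon gave 47.2 ± 8.45 CPM per kb in L1L2-FF and 47.0 ± 6.97 in L1L2-AKO (SD, n = 3).

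Of 13 class 4 to 7 semaphorins, none passed in edgeR, although 2 were lower at an unadjusted p under 0.05. Sema4g had a log2 fold change of -0.69 (adjusted p = 0.0789) and Sema6c one of -0.74 (adjusted p = 0.0883), both without overlap between genotypes. DESeq2 called Sema4g lower and limma-voom called none. Sema6d, the member of these classes with the highest CPM per kb, gave 98.7 to 122 CPM in L1L2-FF and 91.8 to 119 CPM in L1L2-AKO, with a log2 fold change of -0.01 and a standard error of 0.139. Of the remaining members of these classes, Sema4c, Sema4b, Sema7a, Sema6a, Sema5a and Sema5b were among the top 2 of their own class by CPM per kb, with log2 fold changes of 0.01, 0.11, 0.01, -0.54, -0.37 and -0.31 and adjusted p-values of 0.988, 0.621, 0.987, 0.173, 0.368 and 0.513. Their values overlapped between genotypes. Summed per kb, these classes gave 56.5 ± 6.79 CPM per kb in L1L2-FF and 52.8 ± 7.31 in L1L2-AKO (SD, n = 3).

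In all, 19 members, or 31.1%, did not overlap between genotypes, against 36.4% of all genes tested, of which 12 were higher and 7 lower in L1L2-AKO. Of these 19, 8 did not pass the test, among them Robo2 (log2 fold change -1.02, adjusted p = 0.115), Epha7 (0.69, adjusted p = 0.222) and Ephb3 (0.27, adjusted p = 0.417).

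The most abundant guidance receptors did not pass. Per kb of exon, Plxnd1, the plexin of vascular endothelium, averaged 46.9 ± 1.502 CPM per kb in L1L2-FF and 43.4 ± 10.4 in L1L2-AKO, and Nrp1, the coreceptor for class 3 semaphorins and VEGF, 43.7 ± 2.71 and 45.9 ± 2.67 (SD, n = 3). Both headed the list of members on this scale, and with the length of the longest transcript Nrp1 came first. The log2 fold changes were -0.11 for Plxnd1 (standard error 0.180) and 0.07 for Nrp1 (standard error 0.126). Of the 10 members with the highest CPM per kb in each genotype, 7 were the same. Efna1, Plxna1 and Unc5a were among the 10 only in L1L2-FF, where Plxnb2, Sema3c and Sema3f were not. By level, the Robo receptors were led by the endothelial Robo4, at 125, 125 and 103 CPM in L1L2-FF and 125, 89.3 and 54.5 CPM in L1L2-AKO. Robo1, which is known from neurons, gave 3.03 to 5.61 CPM in L1L2-FF and 4.15 to 6.27 CPM in L1L2-AKO (log2 fold change 0.31, adjusted p = 0.540). None of the 4 Robo genes passed by edgeR, DESeq2 or limma-voom, and 1, Robo2, was lower at an unadjusted p under 0.05 in edgeR.

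**Figure D3:**
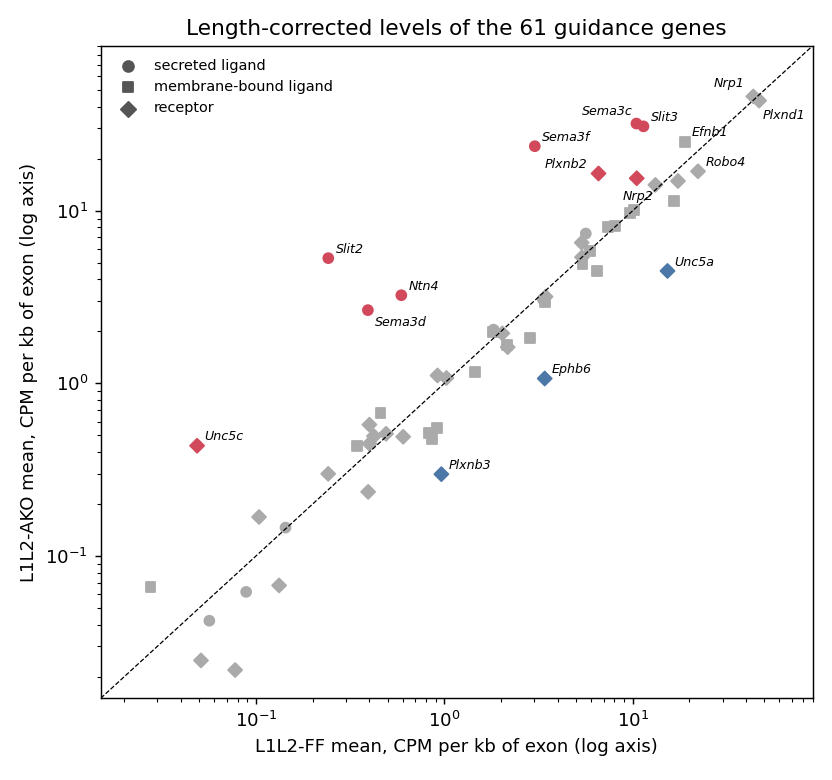
Each point is a guidance gene, with its mean CPM per kb of exon in L1L2-FF (x axis) against L1L2-AKO (y axis), both on log scales, with shape for role, red for higher and blue for lower at an adjusted p under 0.05, and the dashed line at equality. Plxnd1 and Nrp1 sit on the line at the top right, and Sema3f, Slit2, Ntn4, Sema3d and Unc5c lie above it at lower levels.

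Several guidance genes known from endothelium varied among the L1L2-AKO libraries together with other endothelial markers. The summed CPM of 17 such markers, Robo4 left out, was 3424, 3156 and 2609 in L1L2-FF and 3392, 2704 and 1564 in L1L2-AKO. L1L2-AKO replicate 3 thus reached 0.461 of replicate 1 for this sum, and it reached 0.435 for Robo4, 0.459 for Unc5b, 0.461 for Efnb2, the arterial ephrin, 0.603 for Ephb4, its venous receptor, and 0.618 for Plxnd1. The same ratio was 0.562 for Sema3g and 0.890 for Nrp1, which had the highest CPM of these genes and varied less between the L1L2-AKO libraries than the endothelial sum did. In 21 of the 61 members replicate 1 was the highest and replicate 3 the lowest L1L2-AKO library, and how often this order occurred over all genes was not counted. Of the 17 markers 1 fell and none rose, and none was at 0.

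Set against this endothelial sum, Robo4 gave 38.6 ± 1.87 CPM per 1000 CPM of endothelial markers in L1L2-FF and 34.9 ± 1.95 in L1L2-AKO (SD, n = 3). Ephb4 gave 26.3 ± 1.41 and 27.9 ± 3.98, and Plxnd1 113 ± 17.2 and 129 ± 24.0. Efnb2 gave 13.2 ± 0.800 and 15.6 ± 0.367, and Unc5b, a netrin receptor of vessel tips, 11.01 ± 0.656 and 16.04 ± 1.59. Sema3g gave 8.31 ± 2.16 and 13.4 ± 1.36, and Nrp1 gave 141 ± 12.9 and 192 ± 68.9. On this scale the relative spread among L1L2-AKO libraries narrowed for Robo4, Ephb4, Plxnd1, Efnb2, Unc5b and Sema3g and widened for Nrp1. Among L1L2-FF libraries it widened for Plxnd1 and Nrp1 and narrowed for the others. Plxnd1 was close in CPM in L1L2-FF, at 350, 330 and 347, but gave 102, 104 and 133 on this scale. The L1L2-AKO libraries lay above the controls for Efnb2, Unc5b and Sema3g, whose CPM had overlapped. These ratios were formed after the values were seen and carry no test.

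**Figure D4:**
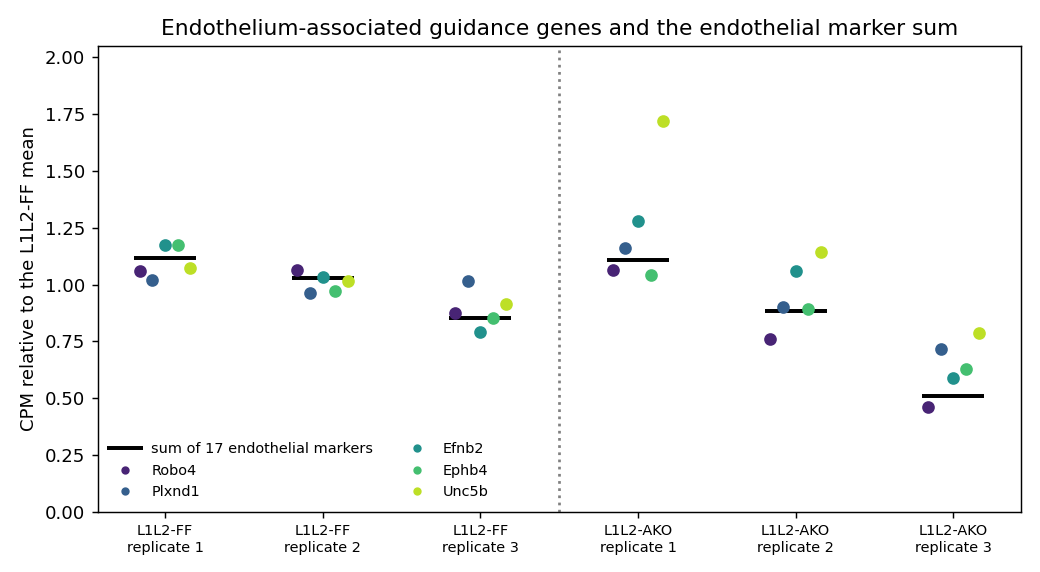
Points are the CPM of 5 guidance genes in each library (x axis) divided by the mean of the 3 L1L2-FF libraries (y axis), and the black bar is the sum of 17 endothelial markers on the same scale. All 5 genes and the bar are lowest in L1L2-AKO replicate 3.

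Other genes of the guidance pathways, a list of coreceptors and intracellular effectors, rose in part. Of 76 listed genes 70 were tested, and 10 rose and 0 fell in edgeR. The share called was 14.3% of the list against 16.5% of all genes. By direction, 14.3% were higher against 9.28% of all genes, and 0% lower against 7.18%. At an unadjusted p under 0.05 in edgeR, 17 were higher and 7 lower. DESeq2 called 12 higher and 1 lower, and limma-voom 9 and 0. Only Mical2 and Pak1 passed in edgeR without L1L2-FF replicate 1, and 5 genes did without L1L2-AKO replicate 2 or without replicate 3. Among effectors of plexins, Mical2, an actin-oxidising enzyme, stood at 22.0, 15.8 and 22.0 CPM in L1L2-FF and at 37.4, 68.2 and 80.0 CPM in L1L2-AKO (log2 fold change 1.63, adjusted p = 0.00651). Pak1, a kinase that acts on the cytoskeleton, had a log2 fold change of 1.42 (adjusted p = 0.00790), and Rras, a small GTPase inactivated by plexins, one of 0.53 (adjusted p = 0.0490).

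Nrcam, an adhesion molecule in semaphorin receptor complexes, gave 1.82, 3.86 and 2.32 CPM in L1L2-FF and 5.58, 13.9 and 19.99 CPM in L1L2-AKO (log2 fold change 2.30, adjusted p = 0.0150). Ryk, a receptor for Wnt proteins, rose by 0.80 on the log2 scale, Met, the receptor of hepatocyte growth factor that can pair with plexins, by 0.60, Itsn1, a scaffold downstream of Eph receptors, by 0.63, and Bcar1, a scaffold of adhesion signalling, by 0.48. Cd72 and Inpp5d, both best known from immune cells, rose by 1.97 and 0.71, beside the macrophage markers given above, whose part was not tested. Cd72 shares 41.6% of its exon bases with another gene. The netrin receptor Dcc was listed at 0 in all 6 libraries, and its relative Neo1 gave 68.4 to 73.6 CPM in L1L2-FF and 75.2 to 88.7 CPM in L1L2-AKO (log2 fold change 0.21, adjusted p = 0.229).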

How the data were processed

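Adipocytes were floated from inguinal fat, and their RNA was sequenced as paired ends on the BGISEQ-500. The authors deposited raw counts per gene symbol. Their processing notes name HISAT2 2.1.0 and StringTie 1.3.5, and the build was mm10. The counting program, annotation and use of strand are not given in the sources used here, so reads of overlapping or antisense genes cannot be told apart. Genes kept by filterByExpr (15674 of 37384) were tested with edgeR 4.0.16 (TMM factors, quasi-likelihood F test, Benjamini-Hochberg adjustment, threshold 0.05) in R 4.3.3, with 3 libraries per genotype and no covariate. Each standard error was taken from the fold change and its F value. The procedure was tested on simulated data. Alternatives were DESeq2 1.42.0, limma-voom (limma 3.58.1), other scalings and filters, a replicate block and each library left out. Levels per kb use GENCODE exon unions of GRCm38, and promoters come from RefSeq (GRCm38.p6). Members and lists were chosen with earlier results of these data known. Named genes were all members past the threshold, the top 2 of each family by CPM per kb, the 5 members of largest change among those without overlap that missed the threshold, and the other guidance genes past it. The remaining class 3 semaphorins, Slit1, Sema4f, Sema4g, Ephb3, Neo1 and Dcc were named after their values were seen. The library totals of 30548473 to 32107917 limit precision for the 5 members under 1 CPM on average in both genotypes.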

Additional observations from a re-analysis of the deposited data

How the results depend on the processing

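Of the 12 guidance genes past the threshold, 8 (Slit2, Sema3f, Sema3d, Sema3c, Ntn4, Plxnb2, Unc5c and Ephb6) passed it under all alternatives run, and no called gene changed sign. The members called lower, 3 in the edgeR fit, were 5 with DESeq2, which added Epha5 and Sema4g, and 6 with the replicate block, which added Efna1, Sema4g and Sema6a and lost Nrp2, a gene called higher. Replicate numbers are shared between the genotypes in the labels, and deviations of same-numbered libraries correlated at 0.179, 0.237 and -0.06. Differently numbered libraries were not correlated for comparison, so these values cannot decide whether the numbers pair the pools. With each library left out, the members called ranged from 8 to 12, those lower from 1 to 3, and the other guidance genes called from 2 to 10. The 2 came without L1L2-FF replicate 1, and 5 came without L1L2-AKO replicate 2 and without replicate 3, which each also left 1 member lower, Ephb6. Slit3 missed the threshold with library size alone (adjusted p = 0.0538), with upper-quartile factors (0.0538) and without each of 4 libraries, Nrp2 without 4 and with library size alone, Plxnb3 without 3, and Unc5a without 4, with DESeq2 size factors (0.0513) and with limma-voom (0.0895). Over all edgeR, DESeq2 and limma-voom settings, 745 of 809 values of named genes, Lats1 and Lats2 included, kept their side of the threshold, 54 lost a call and 10 gained one. Within the 745, the fitted sign changed in 26 values of 10 genes that missed the threshold, Efnb2 and Sema3a among them. The cause of these differences between settings was not tested, other than that leaving out 1 library keeps 2 in that genotype. At this depth a difference in members such as Slit1, Sema3e or Robo3 was not detectable unless large.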

Other observations

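L1L2-FF replicate 2 differed from the other controls in several members. Relative to the mean of the other L1L2-FF libraries it stood at 2.56 for Slit3, 2.11 for Plxnb3 and 2.67 for Epha5, and at 0.277 for Unc5a, 0.536 for Sema3c and 0.539 for Ephb6. It was the highest L1L2-FF library in 34 of the 61 members and the lowest in 10. The shares over all genes tested were not counted, so this is not a trait shown for the guidance genes. The summed CPM of cell type markers differed in L1L2-FF replicate 2 as well. The macrophage sum was 592 against 425 and 315 in replicates 1 and 3, and the Schwann cell sum 1937 against 988 and 1462. The mature adipocyte sum, at 39671, was the lowest of the controls, and the endothelial sum, at 3156, lay between theirs. The part of these cells in the member values was not tested.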
